A study of Xenopus tropicalis with 26 samples.

Results

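In embryos of the western clawed frog, Xenopus tropicalis, 265 of 27836 annotated features were scarce before gastrulation and at least 8 times as abundant at the gastrula. They were chosen from whole transcriptome target sequencing (WTTS), in which fragmented RNA is selected for its polyadenylated ends before cDNA synthesis. Levels are in CPM, the count of a feature scaled to its share of all counts of the library. A feature was kept when its mean over the 4 libraries of stages 6 and 8 lay above 1 and below 20 CPM, called its early level here, and when its mean over the 2 libraries of stage 11 was at least 8 times that early level. The early level lay in that range for 7284 features. The levels of stages 6, 8 and 11 in WTTS therefore chose the features and are given as a description, without a test.

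The embryos came as pools from 2 families, each sampled at stage 6 (cleavage), stage 8 (blastula), stage 11 (gastrula), stage 15 (neurula) and stage 28 (tailbud), which gave 10 WTTS libraries. The pools of stages 6, 8 and 11 were also sequenced by RNA-seq, in 6 libraries. Adult whole-body RNA came from 1 pool of 3 male and 3 female frogs, read in 7 trials of WTTS and once by RNA-seq, and from 1 adult female with 2 technical repeats. The families are the biological replicates, while the trials and repeats are technical, and no treatment or mutation is named for any group.

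A frog egg is loaded with maternal transcripts made during oogenesis, and the first cleavages run on this store while the embryo's own genome is almost silent. Large-scale transcription of the zygotic genome begins around the midblastula transition, and at the gastrula the newly made transcripts include many that set up the germ layers and body axes. A transcript that is present at a low level before gastrulation and abundant at the gastrula can thus be read from both stores, and the counts do not tell the maternal from the zygotic copies. The annotation gives each feature only an XLOC identifier, a scaffold, a start, an end and a strand. Gene names are not paired with them in the files, so no gene role is given below, and coordinates are those of the deposited table, with a genome build not given in the sources used here.

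Embryo WTTS libraries held 1536128 to 6276132 counts, whereas embryo RNA-seq libraries held 110710673 to 131001449, so low levels were measured far more precisely in RNA-seq. A count of 3 equals 0.478 to 1.95 CPM in a single WTTS library of stages 6 and 8, and 0.0229 to 0.0271 CPM in an RNA-seq library of those stages. The adult WTTS libraries held 8364595 to 42424000 counts and the adult RNA-seq library 73522777. A single feature that was not among the 265, XLOC_016359, took 17.6% of family 1 at stage 11 and 17.5% and 16.98% of the families at stage 15, and XLOC_013799 took 39.1%, 33.9% and 31.5% of trials 2, 3 and 4. XLOC_005482, also outside the set, took 13.57% of family 2 at stage 11 and 0.661% of family 1. The CPM of all other features in those libraries is lowered by that share.

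Together the 265 features went from under 0.13% of the WTTS reads to several percent. They made up 0.0769% of the library in both families at stage 6, and 0.0858% and 0.124% in families 1 and 2 at stage 8. The shares then reached 2.35% and 3.32% at stage 11 and 3.80% and 4.27% at stage 15, with 2.31% and 2.60% left at stage 28. In RNA-seq, which did not choose the features, the shares were 0.147% and 0.130% at stage 6, 0.146% and 0.140% at stage 8, and 3.91% and 4.59% at stage 11. All gastrula, neurula and tailbud libraries thus lay far above all cleavage and blastula libraries. These are whole embryos, so more cells of a type that carries a transcript and more RNA per cell cannot be told apart.

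**Figure D1:**
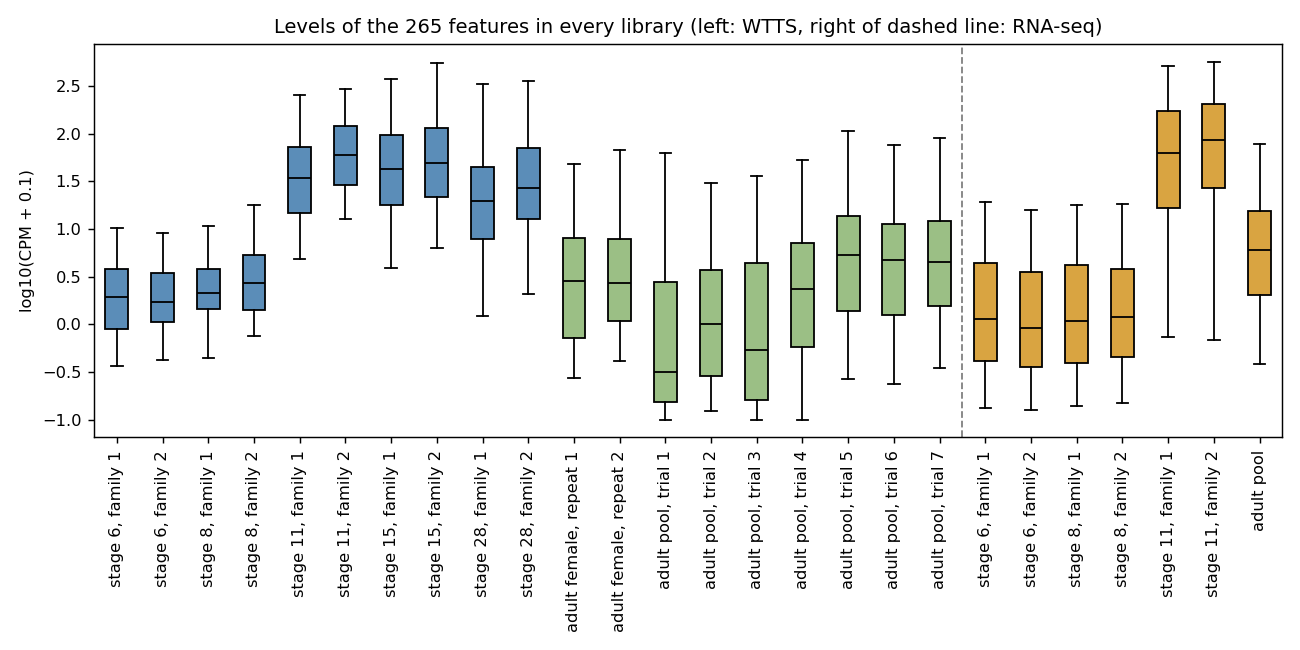
Level of the 265 features in each of the 26 libraries, as log10 of CPM plus 0.1, with WTTS libraries left of the dashed line and RNA-seq libraries right of it; boxes span the quartiles with the median as a line, and whiskers run from the 5th to the 95th percentile. The boxes of stages 11 and 15 lie above those of stages 6 and 8 in both families, and the adult libraries lie in between or below, with trials 1 and 3 lowest.

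Within the chosen set the early level had a median of 2.11 CPM, from 1.00 to 18.1, and rested on a median of 29 reads summed over the 4 early WTTS libraries, from 9 to 259. The stage 11 level had a median of 48.2 CPM, from 8.29 to 2627, and the ratio of both a median of 16.96, from 8.02 to 753. XLOC_015992, on the plus strand of scaffold_5 (82170649 to 82232408), had the highest ratio, and its levels were 4.19 and 2.71 CPM in families 1 and 2 at stage 6, 5.09 and 1.95 at stage 8, and 2625 and 2629 at stage 11. It stayed at 2263 and 2051 CPM at stage 15 and was at 162 and 126 CPM at stage 28. The families were close at every stage from 11 on, and the drop came between stages 15 and 28. It overlaps another feature on its own strand, and reads of such partners may have been split by the counting.

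XLOC_013449, on the plus strand of scaffold_4 (120364874 to 120367734), had the next highest ratio, 617. It was at 3.93 and 2.07 CPM at stage 6, 1.70 and 4.56 at stage 8, 1635 and 2146 at stage 11, 2340 and 3235 at stage 15, and 963 and 1399 at stage 28. Both families followed the same course with the peak at stage 15. At the limit of the rule, XLOC_018960 and XLOC_011169 were just inside, with ratios of 8.02 and 8.05, and XLOC_000465 and XLOC_013251 just outside, each with a ratio of 7.92. Those just inside had the higher early levels, 15.3 and 15.0 CPM against 3.97 and 4.45 CPM.

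The ratio was not equally secure in the 2 families. Both gastrula WTTS libraries lay above all 4 earlier ones for 254 features. The ratio reached 8 within each family for 173 features, within family 1 for 192 and within family 2 for 246. These libraries chose the features, so the rule favours such counts, and the shares over all features were not counted. Family 2 had the higher gastrula level for 202 features in WTTS and for 179 of 262 in RNA-seq, with median ratios of family 2 to family 1 of 1.74 and 1.21. The median over all features was shifted the same way at stage 11. It was 0.939 and 1.58 CPM in families 1 and 2 in WTTS, and 0.974 and 1.15 CPM in RNA-seq. These WTTS medians are near the worth of 3 reads, 0.704 and 1.58 CPM. In fits over all embryo stages of a method, the median log2 difference of family 2 to 1 was 0.16 for the members tested in WTTS. It was -0.01 for all features there, and 0.14 and 0.02 in RNA-seq. Part of the higher level in family 2 is thus shared with all features, and how much is particular to the 265 was not tested. The rule averages the 2 gastrula WTTS libraries, so 1 high library can bring a feature in, while RNA-seq did not choose the features. Wide gaps between families are thus favoured in WTTS, and their shares over all features were not counted. In 15 features 1 gastrula WTTS library was at least 10 times the other, against 1 of 262 features in RNA-seq of the same pools. XLOC_017771, on the plus strand of scaffold_6 (3441519 to 3516787), is such a case, named after its values were seen: it was at 19.9 CPM in family 1 and 2074 CPM in family 2 at stage 11 in WTTS, and at 6.01 and 5.13 CPM in RNA-seq of the same pools. Its families were far apart in WTTS and close in RNA-seq.

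RNA-seq was used to check whether the features were present before gastrulation, as the low WTTS levels rest on few reads. At stage 6, the mean RNA-seq level was at least 1 CPM for 126 of the 265, between 0.1 and 1 CPM for 112, and below 0.1 CPM for 27. No RNA-seq read fell on 2 features at stages 6 and 8, and 5 had at most 3 reads over those 4 libraries. Of the other 7019 features in the early WTTS range, 961 were below 0.1 CPM at stage 6. No read fell on 94 of them, and 175 had at most 3. The share with at least 1 CPM, 47.5%, was lower than the 61.9% of the other 7019 features with an early WTTS level of 1 to 20 CPM, and the medians were 0.922 and 2.81 CPM. These values were not tested against each other, because features of a library are not replicates. Most of the 265 were thus detected at stage 6 in RNA-seq at 0.1 CPM or more, and so were most of the other 7019. Detection at that limit is therefore not read as a trait of the 265. Detection in early WTTS is favoured by the rule. Their median RNA-seq level was below that of other features of the same WTTS range, but early WTTS levels within that range were not matched.

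A few were abundant in RNA-seq from the start. XLOC_018960, on the minus strand of scaffold_6 (41376583 to 41457173), was at 213 and 179 CPM in families 1 and 2 at stage 6, 204 and 180 at stage 8, and 258 and 552 at stage 11 in RNA-seq. In WTTS it was at 10.2 and 18.6, 12.2 and 20.2, and 72.3 and 173 CPM at the same stages. XLOC_006557, on the plus strand of scaffold_2 (91974305 to 91983499), was at 207 and 196 CPM at stage 6, 192 and 160 at stage 8, and 851 and 1308 at stage 11 in RNA-seq. For both features the early RNA-seq level stood far above the WTTS level of the same pool, so "low" holds for them in WTTS and not in RNA-seq. RNA-seq counts grow with transcript length and exon lengths are not used here, so levels of different features are not ranked across methods, and XLOC_006557 overlaps a feature on the other strand.

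Stage 8 was compared with stage 6 in RNA-seq to ask whether any of the 265 began to rise before gastrulation. No feature was called, either among the 262 tested or among all 19413 (0% of all tested in either direction), by the quasi-likelihood test of edgeR at a Benjamini-Hochberg adjusted p below 0.05. At an unadjusted p below 0.05 there were 7 of the 262 higher and 7 lower, against 1307 of all features in either direction. DESeq2 called 50 of all features higher and 27 lower, none of them among the 262, and limma-voom called 0. The median fitted log2 change was -0.01 for the 262 and 0.00 for all features. Both families were higher at stage 8 for 102 of the 262 in RNA-seq, or 38.9% against 41.5% of all features, and both were lower for 65, or 24.8% against 25.1%. In WTTS, where these stages chose the features, the mean was higher at stage 8 for 201 of 264, with 58.9% of all features, or for 166 of 264 with TMM-scaled CPM, with 36.3% of all. The summed shares of the set, given above, overlapped between the stages in RNA-seq and did not in WTTS.

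Among those averaging 10 CPM or more, the largest changes from stage 6 to 8 with groups that did not overlap were small and not past the threshold. XLOC_027076, on the minus strand of scaffold_9 (44207775 to 44256183), was at 10.2 and 8.30 CPM at stage 6, 12.3 and 26.3 at stage 8, and 325 and 303 at stage 11 in RNA-seq, where edgeR gave a log2 change of 0.97 (SE 0.33, adjusted p = 0.732) from stage 6 to 8. Both stage 8 libraries were above both of stage 6, and family 2 carried most of the difference. XLOC_001651, on the plus strand of scaffold_1 (204075558 to 204091152), was at 11.5 and 13.1 CPM at stage 6, 9.82 and 7.21 at stage 8, and 220 and 295 at stage 11, where edgeR gave -0.63 on the log2 scale (SE 0.22, adjusted p = 0.732). XLOC_027076 overlaps a feature on the other strand, and XLOC_001651 overlaps features on both strands.

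Levels at least 2-fold higher at stage 8 were more frequent in family 2 than in family 1, as they were over all features. At least a 2-fold higher level at stage 8 than at stage 6 was found in 34 of 262 features in family 2, or 13.0% against 9.33% of all features, and in 2 features in family 1, or 0.763% against 4.38%. With at least 10 reads in the stage 8 library the counts were 31 (5.85% of all features) and 1 (1.97%). At least 2-fold lower levels were found in 7 features in family 1 (3.74%) and 6 in family 2 (3.38%). Only XLOC_005478 was at least 2-fold higher in both families (1.09% of all features), and only XLOC_027650 at least 2-fold lower in both (0.654%), the latter on 5 reads against 2. With at least 10 reads in each library of the higher stage, XLOC_005478 remained (0.237% of all features) and none was lower (0.0412%). Each family had 1 library per stage, so a difference between families in this early change could not be tested.

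XLOC_023486, on the plus strand of scaffold_8 (70648391 to 70657606), showed the widest gap: 11 and 10 RNA-seq reads fell on it at stage 6 in families 1 and 2, and 10 and 857 at stage 8. Its level at stage 8 was 0.848 times that of stage 6 in family 1 and 78.3 times in family 2. XLOC_005478, on the minus strand of scaffold_169 (57423 to 90773), went from 4 and 2 reads to 11 and 132, which are ratios of 2.57 and 60.3. XLOC_018907, on the minus strand of scaffold_6 (34598768 to 34625941), went from 98 and 67 reads to 107 and 727, or ratios of 1.02 and 9.91. In these 3 features the single library of family 2 at stage 8 stood above the other 3 early RNA-seq libraries. These examples were picked with their values in view, and XLOC_005478 overlaps features on both strands.

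The WTTS libraries of the same pools, which share the embryos but not the library, placed most of these features on the same side. Of 12 features at least 3-fold higher at stage 8 in family 2 with at least 10 reads (1.68% of all features), 11 were also higher in family 2 than in family 1 at stage 8 in WTTS, as were 169 of all 265. The stage 8 WTTS libraries also helped to choose the features, so this agreement may be built in. It cannot back the RNA-seq rise. Some of it is slight: XLOC_000796 was at 0 and 0.651 CPM and XLOC_018907 at 2.38 and 2.60 CPM in families 1 and 2. XLOC_023486 was at 0.340 and 5.21 CPM and XLOC_005478 at 0 and 13.0 CPM in WTTS at stage 8. At stage 11, XLOC_023486 was at 77.0 CPM in family 1 and 17.7 in family 2 in RNA-seq, and XLOC_005478 at 29.7 and 24.9. Family 1 had thus reached or passed family 2 by the gastrula for both. The hour at which each pool was taken within stage 8 was not given in the sources used here, and its part was not tested.

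**Figure D2:**
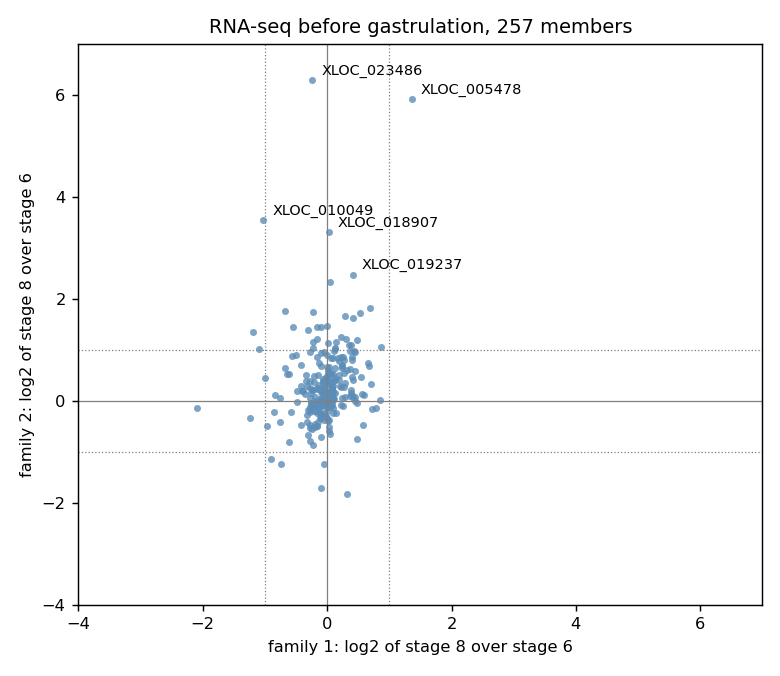
Log2 ratio of stage 8 to stage 6 in RNA-seq for the 257 features with reads in all 4 libraries, family 1 on the x axis and family 2 on the y axis, with dotted lines at a 2-fold change. Most points lie within the 2-fold lines, and a tail of features extends upward in family 2 at little or no change in family 1, led by XLOC_023486 and XLOC_005478.

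Between stages 8 and 11, RNA-seq showed a rise of nearly all of the 265. The edgeR test called 243 of the 262 tested features higher at stage 11, against 30.3% of all features, and 1 lower, against 28.2%. The median log2 change was 5.93 for the 243, or 5.89 with the 1 feature at 0 reads at stage 8 set to 3 reads over the group, and 2.99 for all features called higher. A feature low at stage 8 enters the test mostly through its gastrula reads. Of the 237 that were above the filter limit of 0.0829 CPM in both stage 8 libraries, 220 were called higher, 92.8% against 21.4% of the 15934 features above the same limit. Both gastrula libraries lay above all 4 earlier RNA-seq libraries for 252 of the 262, or 96.2%, against 42.3% of all tested features. The RNA-seq libraries did not choose the features but come from the same embryo pools, so the families are not new ones.

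XLOC_022972, on the plus strand of scaffold_8 (19646419 to 19649851), had RNA-seq levels of 0.0327 and 0.0271 CPM at stage 6, 0.0382 and 0.0495 at stage 8, and 36.0 and 44.5 at stage 11, and edgeR gave a log2 change of 9.71 from stage 8 to 11 (SE 0.36, adjusted p = 1.48e-05). XLOC_011895 lies on the minus strand of scaffold_375 (35997 to 41706) and was at 0.0573 and 0.0271 CPM at stage 6, 0.0534 and 0.00825 at stage 8, and 37.7 and 28.6 at stage 11. Its log2 change was 9.90 (SE 0.73, adjusted p = 0.000115, edgeR), and its stage 8 level in family 2 is 1 read. It was 11.67 without family 1 of stage 8 and 9.13 without family 2 of that stage, both still called. In both features the gastrula libraries stood far above the early ones, with no overlap. Their WTTS levels at stage 11 were 34.5 and 82.5 CPM for XLOC_022972 and 11.97 and 15.2 CPM for XLOC_011895.

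The size of the rise in RNA-seq varied across the features. In RNA-seq, stage 11 was at least 8 times the mean of stages 6 and 8 for 218 of the 265, against 16.3% of all tested features and 11.3% of 6670 other tested features in the same early WTTS range. It was 2 to 8 times that mean for 28, and under 2 times or not detected for 19. Across the features, the WTTS and RNA-seq ratios had a Spearman correlation of 0.512 (n = 263), and the stage 11 levels one of 0.533 (n = 265). The ratios share the embryo pools. RNA-seq ratios had a median of 59.6, quartiles of 16.7 and 207 and a maximum of 1092. The rule kept only WTTS ratios of at least 8 and early WTTS levels above 1 CPM, and set no limit in RNA-seq. The ranges of the 2 methods are therefore not compared, and the correlation of the ratios is over a cut range.

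**Figure D3:**
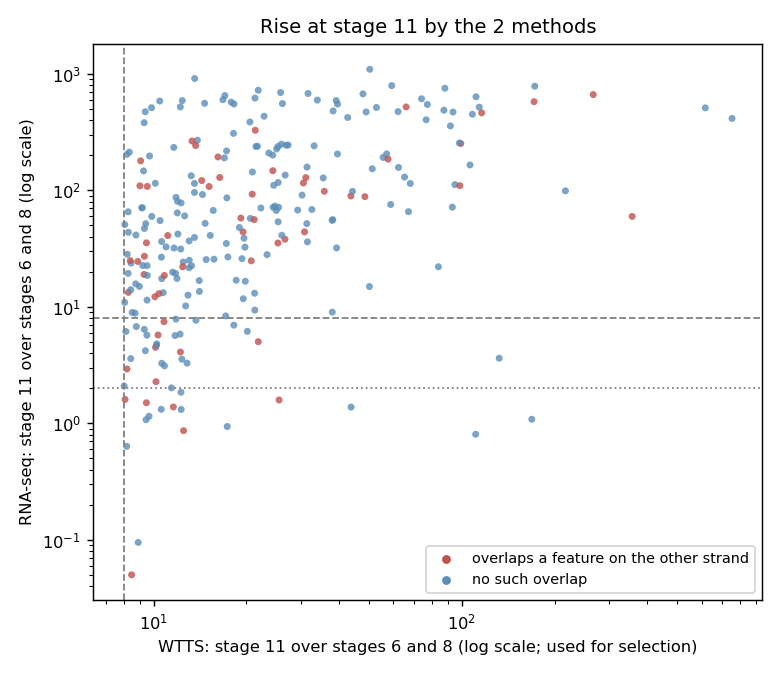
Ratio of stage 11 to the mean of stages 6 and 8 in WTTS (x axis, log scale, which chose the features, dashed line at 8) and in RNA-seq (y axis, log scale, dashed line at 8, dotted line at 2) for 263 features; 2 features without RNA-seq reads at stages 6 and 8 are not drawn. Red points overlap a feature on the other strand. Most points lie above 8 in both methods, and 17 lie under the dotted line, among them features with WTTS ratios above 100; a ratio of 0 is drawn at 0.05.

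The 19 features without a 2-fold rise in RNA-seq include some with clear gastrula levels in WTTS, and the examples here were chosen after their values were seen. XLOC_019725, on the plus strand of scaffold_606 (20921 to 24344), was at 0.262 and 0 CPM at stage 6, 0.340 and 6.51 at stage 8, and 438 and 162 at stage 11 in WTTS. Its RNA-seq levels were 1.99 and 3.08 at stage 6, 2.76 and 1.82 at stage 8, and 3.53 and 1.69 CPM at stage 11. The same pools thus gave a wide separation of stages in WTTS and overlapping groups in RNA-seq. XLOC_016871, on the minus strand of scaffold_5 (89879676 to 89887053), was the feature called lower: it was at 1.77 and 1.94 CPM at stage 8 and at 0.162 and 0.192 CPM at stage 11 in RNA-seq (log2 change -3.48, SE 0.38, adjusted p = 0.000488, edgeR), and at 16.4 and 2.63 CPM at stage 11 in WTTS. The lower WTTS value rests on 5 reads.

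XLOC_007092 and XLOC_015010, on the minus strands of scaffold_2 (695120 to 697081) and scaffold_420 (23919 to 30451), had no RNA-seq read in any of the 6 embryo libraries. Their WTTS levels at stage 11 were 45.1 and 15.2 CPM, and 36.8 and 14.7 CPM. Each overlaps an antisense feature, as do 8 of the 19, 7 of the 28 and 43 of the 218. If the counting ignored strand (not given in the sources used here), reads of such partners cannot be told apart. Median WTTS levels at stage 11 were 31.2 CPM for the 19, 32.4 for the 28 and 51.7 for the 218.

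After the gastrula the features parted ways. The mean WTTS level was highest at stage 11 for 130 features, at stage 15 for 98 and at stage 28 for 37. Stage 15 was at least 2-fold above stage 11 for 49 features (14.0% of all tested features), within 2-fold for 156 and at least 2-fold below for 60 (24.2%). Stage 28 was at least 2-fold above stage 11 for 37 (28.8%), within 2-fold for 93 and at least 2-fold below for 135 (19.9%). These comparisons share the stage 11 libraries with the choice of the features, which favours high values there, and so are described without a test. Levels mostly stayed far above the early ones: 207 features were at least 8 times their early level at stage 15 and 151 at stage 28, while 1 and 17 were at or under it. The rule chose low early levels that rest on few reads, which favours such ratios. The matching shares of all features were not counted.

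**Figure D4:**
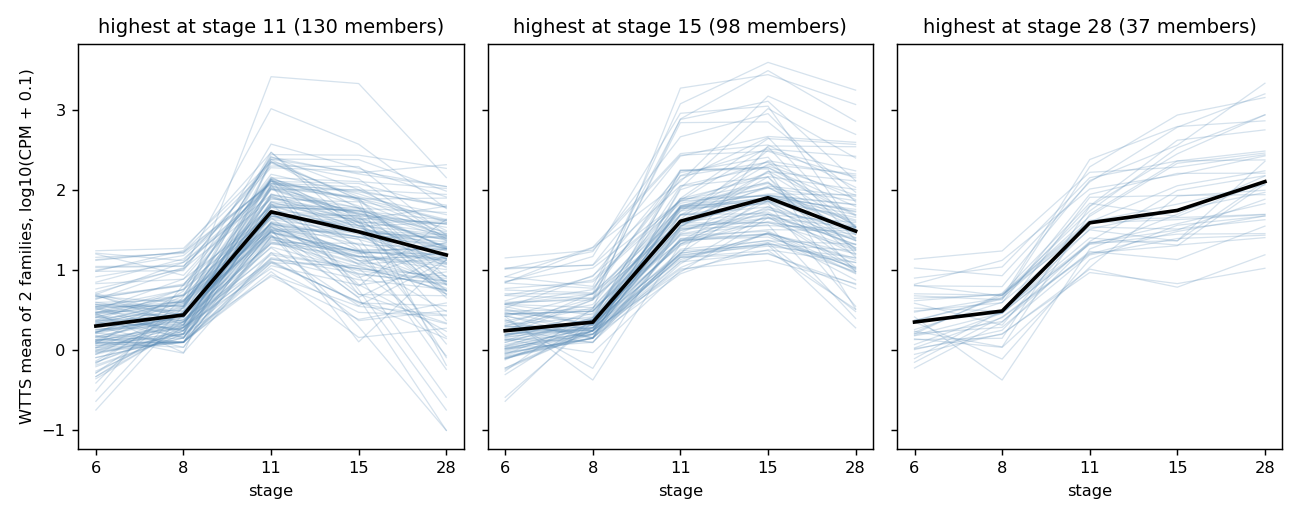
WTTS level of each feature (mean of 2 families, log10 of CPM plus 0.1) over the 5 stages, spaced evenly, in panels by the stage of the highest mean, with the median of each panel in black. The 130 features highest at stage 11 fan out downward by stage 28, some to 0, while the 37 highest at stage 28 keep rising.

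Between stages 15 and 28, libraries that did not choose the features, the general movement was downward. The edgeR test called 105 of 264 tested features lower at stage 28, against 8.37% of all features, and 4 higher, against 9.88%. The median log2 change was -1.15 over the 264 and 0.05 over all features tested. It was -2.29 for the 105 and -1.94 for all features called lower. Groups did not overlap for 104 of the 105, as for 1161 of the 1173 called lower among all features, and 91 of the 105 were still above their early level. Leaving out 1 library gave 48 to 76 features lower and 0 to 3 higher, the lower counts being 48 when family 1 of stage 28 was dropped, 51 and 76 when family 1 or 2 of stage 15 was, and 59 for family 2 of stage 28. A fit that blocked on family called 127 lower and 6 higher. Of the 105, 49 had their highest mean at stage 11 and 56 at stage 15.

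XLOC_025407, on the minus strand of scaffold_8b (1484228 to 1493134), was a transient gastrula feature. Its WTTS levels were 0.262 and 2.55 CPM at stage 6, 0.340 and 1.30 at stage 8, 174 and 309 at stage 11, 60.7 and 90.5 at stage 15, and 0.319 and 0.785 at stage 28. From stage 15 to 28 it fell by a log2 of 7.52 (SE 0.71, adjusted p = 7.81e-05, edgeR). Its tailbud level was back within the range of the early libraries, and all 4 libraries of stages 11 and 15 stood above the other 6. In RNA-seq it was at 18.9 and 22.7 CPM at stage 6, 17.4 and 21.9 at stage 8, and 1982 and 2016 at stage 11, so its early level was higher in that method.

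XLOC_010069, on the plus strand of scaffold_3 (75944037 to 75962629), was at 73.7 and 15.5 CPM at stage 15 and 0.638 and 0.785 at stage 28 in WTTS (log2 change -6.35, SE 1.43, adjusted p = 0.0112, edgeR). Its families stood apart at stage 11, at 196 and 9.45 CPM, and its RNA-seq levels there were only 0.631 and 0.0917 CPM. The call was lost with limma-voom (adjusted p = 0.105) and without family 1 of stage 15 (log2 change -4.58, adjusted p = 0.0968) or either library of stage 28 (0.0848 and 0.0586, edgeR). Both families went down, on very different starting levels.

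Among the 4 that rose, XLOC_021030, on the plus strand of scaffold_7 (104927443 to 104930741), climbed at every step from stage 8. Its WTTS levels were 10.2 and 2.39 CPM at stage 6, 7.13 and 5.21 at stage 8, 110 and 154 at stage 11, 310 and 421 at stage 15, and 2268 and 2086 at stage 28. From stage 15 to 28 edgeR gave 2.26 on the log2 scale (SE 0.50, adjusted p = 0.0100). No stage from 8 on overlapped the next. The call was lost without either library of stage 15 and without family 1 of stage 28, at adjusted p-values of 0.0900, 0.0579 and 0.0542 by edgeR. The feature overlaps one on the other strand.

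XLOC_023477, on the plus strand of scaffold_8 (69843820 to 69878881), was at 9.89 and 36.8 CPM at stage 15 and 403 and 58.4 at stage 28 in WTTS (log2 change 3.201, SE 0.96, adjusted p = 0.0378, edgeR). Most of the change came from family 1. Without family 1 of stage 28 the log2 change was 0.82 (adjusted p = 0.591), without either family of stage 15 it was 2.61 and 4.20 (adjusted p = 0.229 and 0.0766), and DESeq2, limma-voom and the family block gave adjusted p-values of 0.0963, 0.0837 and 0.0530. This rise rests on 1 library.

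Few of the features were called different between the families, but with 2 families a missing call does not show a missing difference. In the main edgeR fits, the share called higher in family 2 exceeded that of all features in both methods, and the share called lower did not. This rests on few features and did not hold under all settings. With no filter on low counts, edgeR on WTTS called 26 of 265 higher and 26 lower, against 355 and 968 of all 23103 features. With stage accounted for, the edgeR test on WTTS called 6 of 264 features higher in family 2 (0.685% of all features) and 5 lower (2.60%). Its stage 11 libraries also chose the features, and the rule can be met through 1 high family. The choice thus favours family differences in WTTS. In RNA-seq the edgeR test called 5 of 262 higher (0.670%) and 0 lower (0.876%). At an unadjusted p below 0.05 by edgeR, WTTS had 43 higher and 31 lower, against 2892 of all 14013 features in either direction. RNA-seq had 36 higher and 21 lower, against 2613 of all 19413 features in either direction. In RNA-seq, DESeq2 called 17 higher and 9 lower, with 476 and 526 among all features, and limma-voom 8 and 1, with 223 and 249. XLOC_020016, on the plus strand of scaffold_6828 (449 to 2864), was at 1.05 and 3.68 CPM in families 1 and 2 at stage 6, 1.44 and 3.68 at stage 8, and 28.0 and 126 at stage 11 in RNA-seq (log2 of family 2 to 1 1.80, SE 0.20, adjusted p = 0.0165, edgeR). In WTTS, family 2 was also higher at each of the 5 stages, with 35.7 CPM where family 1 had 9.62 at the gastrula and 75.4 where it had 49.1 at the neurula, without a call (adjusted p = 0.260, edgeR). The features named for RNA-seq had to differ in the same direction at all 3 of its stages, so only the WTTS pairs add to the direction. Those of stages 6, 8 and 11 measure the same pools again, and all pairs are from the same 2 families. Without stage 6 the RNA-seq call was lost, at a log2 of 1.76 (adjusted p = 0.223, edgeR).

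XLOC_026058, on the plus strand of scaffold_9 (54298842 to 54347566), was higher in WTTS of family 2, with a fitted log2 difference of 4.33 (SE 0.71, adjusted p = 0.0101, edgeR). The families were at 2.82 and 231 CPM at the gastrula and at 0 and 9.76 CPM at the neurula. The feature met the rule through family 2 alone, so this difference was favoured by the choice. Without stage 11 the log2 difference was 2.61 (adjusted p = 0.123), and without stage 15 the adjusted p was 0.0505 (edgeR). In RNA-seq its families were alike and low, at 0.252 and 0.325 CPM at stage 11. XLOC_027442, on the minus strand of scaffold_9 (83971766 to 83973501), was lower in WTTS of family 2, with a fitted log2 difference of -1.32 (SE 0.29, adjusted p = 0.0299, edgeR) and 58.0 and 16.3 CPM in the families at the gastrula. Its call was lost without stage 8, 11, 15 or 28, at adjusted p-values of 0.0727 to 0.142 by edgeR. The counts of calls were unstable. Leaving out a stage gave 0 to 9 features in each direction in WTTS, with 0 in both without stage 11. In RNA-seq it gave 0 to 19 higher and 0 to 28 lower, with the highest counts without stage 11. These tests concern 2 families only, and family and any common handling of its pools cannot be told apart.

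Adults carried most of the features at low levels. In the adult female the median over the 265 was 2.55 CPM and in the trials of the adult pool, taken as the median of 7, it was 2.40 CPM, close to the early embryonic median of 2.11 CPM and far under the gastrula median of 48.2 CPM. The closeness holds for unscaled CPM only, and the rule set the range of the early median. TMM factors were 0.191 to 1.30 in the trials, 1.20 and 1.32 in the female and 1.56 to 2.02 in the early libraries. With TMM scaling the adult levels would thus stand higher against the early ones. Medians over the 265 ran from 0.212 CPM in trial 1 to 5.26 CPM in trial 5. Against stage 11, the female was at least 2-fold lower for 239 features (26.5% of all tested features), within 2-fold for 16 and at least 2-fold higher for 10 (31.2%). The pool was lower for 243 (54.4%), within 2-fold for 14 and higher for 8 (13.3%). With trial 5 alone the pool was higher for 18 and with trial 2 alone for 5. The female was at or under the early embryonic level for 129 features and the pool for 147, in unscaled CPM. The matching share of all features was not counted, so these numbers are not read as a trait of the 265. Repeats and trials measure technical spread, and stage 11 chose the features, so no test is given.

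The adult RNA-seq library, compared with RNA-seq of the embryos, placed the features between the stages. It was at most 0.5 times stage 11 for 211 features (21.6% of all tested features), at least 2 times for 31 (37.6%) and in between for 23. Against stage 6 it was at least 2 times for 184 (45.5%), at most 0.5 times for 20 (17.9%) and in between for 61. The adult median was 5.97 CPM, against 0.922 CPM at stage 6 and 76.9 CPM at stage 11. The adult is a single library here, so these counts have no replicate check.

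In WTTS, 10 of the 265 reached 100 CPM in the female or the pool. The matching share of all features was not counted. XLOC_021030, which rose through stage 28, was the highest, at 4802 and 3568 CPM in the 2 repeats of the female, 2005 to 10209 CPM with a median of 5352 in the 7 trials and 4892 CPM in adult RNA-seq. Every adult library was thus above or close to the tailbud level. XLOC_019888, a feature of 439 bases on the plus strand of scaffold_649 (11196 to 11634), was at 796 and 364 CPM in the female and 26.1 to 926 CPM with a median of 359 in the trials, after 227 and 166 CPM at stage 11, 710 and 1034 at stage 15 and 2384 and 503 at stage 28. In RNA-seq it was at 0.974 and 4.38 CPM at stage 11 and 52.5 CPM in the adult, so its gastrula CPM was far lower than in WTTS. RNA-seq counts grow with transcript length and this feature is short, so the scales of the methods are not matched here.

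XLOC_027442 took another course, with 37.1 CPM at stage 11, 25.8 at stage 15 and 14.0 at stage 28 as means of the families, and then 343 and 152 CPM in the female repeats and a median of 263 CPM in the trials. XLOC_026605, on the plus strand of scaffold_9 (93934377 to 93960184), reached 100 CPM through 1 library: the female repeats gave 244 and 2.38 CPM. Its gastrula levels were 1554 and 279 CPM in WTTS and 15.1 and 13.5 CPM in RNA-seq. The repeats of 1 animal thus stood far apart, and the feature was chosen after its values were seen.

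At the other end, XLOC_005478, at 168 and 126 CPM at stage 11, was at 0.175 and 0.135 CPM in the female repeats and 0 to 1.32 CPM in the trials. XLOC_023213, on the plus strand of scaffold_8 (48057070 to 48062371), went from 123 and 144 CPM at stage 11 through 42.6 and 49.2 at stage 15 and 7.49 and 3.53 at stage 28 to 0.175 and 0.135 CPM in the female and 0 to 0.268 CPM in the trials. Its RNA-seq levels were 374 and 397 CPM at stage 11 and 0.286 CPM in the adult. The female values of both are 2 reads and 3 reads, about what 3 reads are worth, 0.263 and 0.135 CPM. Both were thus embryonic in these samples, with no adult library near the gastrula level.

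**Figure D5:**
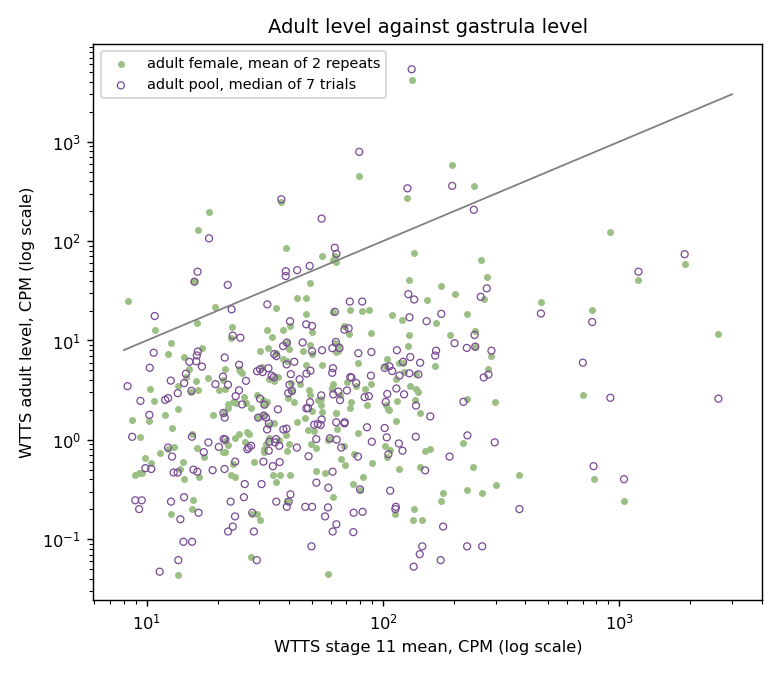
WTTS level of the 265 features at stage 11 (x axis, mean of 2 families, CPM, log scale) against the adult female (filled, mean of 2 repeats) and the adult pool (open, median of 7 trials; 7 features with a median of 0 are not drawn) on the y axis (CPM, log scale), with the line of equal levels. Nearly all points lie below the line, and XLOC_021030 stands far above it with 4185 CPM in the female and 5352 CPM in the pool.

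The adult level was also read by the stage of the embryonic peak, as a description. The 37 features highest at stage 28 had a median of 7.34 CPM in the female and 7.29 in the pool, those highest at stage 11 had 2.38 and 1.42 CPM, and those highest at stage 15 had 2.40 and 2.43 CPM. Across the 265 features, stage 28 and the female had a Spearman correlation of 0.470. The female had both repeats above all 7 trials for 16 of 264 features, or 6.06% against 17.8% of all tested features, and below all for 2, or 0.758% against 0.414%. The pool holds RNA of both sexes and the trials used other protocol versions, so sex, animal and protocol cannot be told apart.

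In the annotation the 265 features spanned a median of 27360 bases with introns, against 26282 for the other 7019 features of the same early range and 10820 for all. An overlap with a feature on the other strand was found for 58, or 21.9%, against 22.4% and 19.1%. They were spread over scaffold_1 to scaffold_10, which held 235 of them, or 88.7%, against 78.9% of all features, with 124 on the plus strand. No more than 2 were direct neighbours, in 5 pairs. In 1 pair, on scaffold_2, XLOC_005882 rose in RNA-seq from 0.992 and 0.800 CPM at stage 8 to 477 and 499 CPM at stage 11 (adjusted p = 6.36e-06, edgeR). Its neighbour XLOC_007135, 20744 bases away on the other strand, was at 9.20 and 8.24 CPM and then at 10.7 and 13.2 CPM (log2 change 0.35, SE 0.25, adjusted p = 0.265, edgeR). No sequence of the features is shown, as no genome of this annotation was used here.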

How the data were processed

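The authors deposited raw, whole-number read counts per feature for 27836 features in 26 libraries, and these counts were used as deposited. Trizol extraction, WTTS preparation by fragmentation, poly(A) enrichment, cDNA synthesis, sizing and PCR, and Illumina and Ion Torrent sequencing were used, per the labels' protocols. Aligner, read counter, genome build and strand setting: not given in the sources used here. CPM was computed here as count divided by column sum. The reference gene table matched 0 of the 27836 identifiers, so fixed lists of genes and markers could not be used.

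Tests used edgeR 4.0.16 in R 4.3.3 (TMM, filterByExpr, quasi-likelihood F-test, Benjamini-Hochberg adjustment over all features tested, threshold 0.05), with all 10 embryo WTTS libraries or all 6 embryo RNA-seq libraries in a fit and stage as the factor. SE was taken as log2 change (absolute) over root F. Alternatives used DESeq2 1.42.0 and limma-voom 3.58.1. Fits were tested on simulated counts. Levels and figures used Python 3.11.15, pandas 2.3.3 and matplotlib 3.10.9.

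The labels give the same 2 families at each stage, so libraries pair by family: deviations from stage means correlated at 0.114 to 0.415 over 10 pairs of WTTS stages (9854 features) and 0.266 to 0.554 over 3 pairs of RNA-seq stages. Replicate libraries differed beyond sampling noise (chi-square per degree of freedom 17.9 to 2675). Counting limits cover counting error only.

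The selection rule, its members and the lists were chosen with earlier results of these data known. Named features were, per comparison, up to 2 per direction with the largest called change, groups that did not overlap and a mean of at least 10 CPM (for family, the same sign at every stage in place of non-overlap), plus the extremes of ratio, gastrula level, adult level and early RNA-seq level, the limits of the rule and the first pair of neighbours. Others are marked as chosen after their values were seen.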

Additional observations from a re-analysis of the deposited data

Results flagged for a closer look

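In 10 sets of values over the 7 adult trials, a single library far from the rest was looked for. The sets held levels of some features named above and summaries over all chosen features. Such a library was found in 2 sets, both for single features. The limit used is meant to be passed by chance in about 1 of 20 sets. Whether that rate holds for these trials was not tested, so the 2 sets are not read as more than chance. XLOC_023477 was at 501 CPM in trial 3, against a median of 36.2 CPM over the trials. XLOC_005478 was at 1.32 CPM in trial 4, against a median of 0.0849 CPM. Trials 3 and 4 are among those in which XLOC_013799 took over 30% of the reads, and the part of that share was not tested.

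In 4 of the 12 features at least 3-fold higher at stage 8 than at stage 6 in family 2 by RNA-seq, the ratio of family 1 was below 1. The ratios of stage 8 to stage 6 were 78.3 in family 2 and 0.848 in family 1 for XLOC_023486, 11.7 and 0.491 for XLOC_010049, 3.37 and 0.622 for XLOC_024858, and 3.35 and 0.855 for XLOC_000568. Each ratio rests on 1 library per stage, and the difference between families was not tested. XLOC_010049 went from 19 to 10 reads in family 1 and from 11 to 141 in family 2, while XLOC_000568 went from 12 to 11 and from 6 to 22 reads. In family 1 the change was 1 read for XLOC_000568 and for XLOC_023486, so these ratios show no movement of that family.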

How the results depend on the processing

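Of 163 alternatives for counts of features, 117 stayed within 1.5 times the main count. These 117 include the calls of stage 8 against 6, where the main count and every alternative were 0. Of 104 alternatives for single features with a call, 75 kept it and 29 lost it. The 36 alternatives for single features without a call stayed without one, and 0 of all 140 turned direction. These features were named for groups that did not overlap, or for the same sign at every stage. The choice thus favoured a kept direction, which is no sign of stability. The rise from stage 8 to 11 in RNA-seq kept 227 to 234 features higher and 1 to 2 lower when 1 library was left out, and 244 higher with family as a replicate block. Stage 28 against 15 gave 11 higher with no filter on low counts, 127 lower and 6 higher with the block, and 48 to 76 lower and 0 to 3 higher without 1 library. Family 2 against 1 in WTTS gave 26 higher and 26 lower with no filter, 12 higher with DESeq2, 11 and 11 with limma-voom, and 0 to 9 in each direction without 1 stage. In RNA-seq it gave 2 lower with no filter, 17 higher and 9 lower with DESeq2, 8 and 1 with limma-voom, and 0 to 19 higher and 0 to 28 lower without 1 stage. Stage 8 against 6 at 2-fold gave 2 higher and 7 lower in family 1 alone, 34 and 6 in family 2 alone, and 0 lower with at least 10 reads, an alternative chosen after seeing the data. Stage 15 was 2-fold above 11 for 84 in family 1 alone. The adult pool was higher for 17 and within 2-fold for 28 with TMM scaling. Single trials gave 5 higher (trial 2), 18 (trial 5) and 14 (trial 7), and 30, 24 and 22 within 2-fold (trials 5, 6 and 7). The rule took 532 features at 4-fold, 136 at 16-fold, 280 with TMM scaling (223 of the 265), 192 from family 1 alone (154) and 323 from family 2 alone (219). The causes of these shifts were not tested. Few early WTTS reads and 2 families limit what can be told.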
